A study of Rattus norvegicus with 24 samples.

Results

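The genes described here are the receptor subunits for glutamate and GABA, the main excitatory and inhibitory transmitters of the brain. They were found by name among the non-control probes of a rat array: Gria, Grin, Grik or Grm with a number, and symbols that begin with Gabra, Gabrb, Gabrd, Gabrg, Gabre, Gabrr or Gabbr. This gave 75 probes for 43 genes, 1 probe standing for each gene (that of the highest mean), and 37 of the 43 entered the tests across 20902 genes. RNA came from the left dorsal striatum, dissected by hand from male Long Evans rats of 80 to 90 days. All rats had 1 intraperitoneal injection a day on 5 days. The saline group had saline each time, the acute group had MDPV (methylenedioxypyrovalerone, a synthetic cathinone that blocks dopamine and noradrenaline uptake) only in the last injection, and the chronic group had MDPV in all 5. The dose was 1 mg/kg, and the animals were killed 24 h later. The 8 arrays of each group were taken as 6 units, the number that the design gives, which left 18 units in all. Letters A to F in the titles each mark 2 arrays of 1 group, and these 2 were averaged. The arrays titled H with a number were each kept as 1 unit. The labels do not say that each unit is a separate animal, so p-values measure the spread between these units, which may be partly technical. Nor do they say that averaged arrays come from 1 animal, so averaging may have merged separate samples and hidden their spread.

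Ionotropic glutamate receptors are ion channels of the AMPA (Gria), NMDA (Grin) and kainate (Grik) families, and each channel is assembled from several subunits. Metabotropic glutamate receptors (Grm) and GABA-B receptors (Gabbr) act through G proteins, whereas GABA-A receptors (Gabr) are chloride channels whose kinetics and place on the cell depend on which subunits join. The projection neurons of the striatum release GABA themselves and are driven by glutamate from cortex and thalamus, so both receptor classes are well known in this tissue.

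The striatal origin of the tissue was checked on 19 genes of projection neurons, such as Ppp1r1b and Drd1, all of which were measured. Their mean level was 1.44 to 3.25 in saline, 2.27 to 3.03 in acute and 2.08 to 2.95 in chronic arrays, as log2 signal relative to the array's 75th percentile, the scale used for all levels here. The array of saline replicate 4 stood apart, with the lowest striatal level of all (1.44) and the highest level of 8 hypothalamic peptide genes, which was -0.89 there and between -4.19 and -3.04 in the acute and chronic arrays. Other arrays stood apart on 7 measured of 12 choroid plexus genes, whose level was 0.74 in saline replicate 5, 0.72 in chronic replicate 8, -0.07 in saline replicate 4 and -0.45 in saline replicate 3. It was between -5.45 and -1.32 on the rest. Chronic replicate 8 was averaged with chronic replicate 6, whose level was -5.02, and saline replicate 5 with saline replicate 2, at -3.02. A level of 11 measured of 12 cortical neuron genes ranged from -4.64 to -1.57 in saline, from -3.08 to -2.04 in acute and from -4.71 to -1.57 in chronic arrays. Between 50.7% and 71.3% of spots on an array were well above background and 0 were saturated. In whole tissue, fewer cells of a type and less RNA per cell cannot be told apart.

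An array level depends on the probe as well as on the transcript, and 60-base probes of the same gene could differ widely in level. The brightest subunit probe of all, for the NMDA receptor subunit Grin2d, is shown with the other probes of that gene because they differed so widely. It lies on rat build rn4 at chr1:96309508-96309567, minus strand, has a GC content of 78.3% and had a mean level of 3.18. Its companions at chr1:96308327-96308386 and chr1:96308941-96309003 had mean levels of -4.12 and -4.83.
Grin2d, brightest probe: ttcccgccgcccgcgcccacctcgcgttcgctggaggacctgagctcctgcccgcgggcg
Grin2d, second probe: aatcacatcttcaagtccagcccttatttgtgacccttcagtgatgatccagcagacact
Grin2d, dimmest probe: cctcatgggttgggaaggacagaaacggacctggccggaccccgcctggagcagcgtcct
Only 87 of the 45598 probes had a GC content of 70% or more. Their median level was -3.57, against -5.98 for the 24180 probes of 40% to 50% GC. The median GC content was 43.3% over the subunit probes and over all probes.

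The brightest probe of Grm6, a metabotropic receptor best known from retinal bipolar cells, is shown because of its repeat. It is placed on rn4 at chr10:36436034-36436099, plus strand, and the capitals mark 10 copies of GTT in tandem.
Grm6, brightest probe: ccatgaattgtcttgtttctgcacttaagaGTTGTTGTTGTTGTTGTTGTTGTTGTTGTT
Grm6, second probe: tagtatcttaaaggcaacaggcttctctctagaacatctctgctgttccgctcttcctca
The repeat probe had a mean level of -1.86 and was well above background on all 24 arrays. The second probe, at chr10:36436657-36436716, was 4.97 log2 units dimmer and well above background on 7 arrays, and the dimmest probe was 6.04 units below the first and above background on none. Runs of at least 5 tandem copies of a 3-base unit were found in 1 of the 75 subunit probes and in 43 (0.0943%) of all probes on the array. Of those 43 probes, 69.8% were well above background on all arrays, against 37.2% of all probes. The part of base composition or repeats in the signals of Grin2d and Grm6 was not tested.

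The GABA-B subunit Gabbr2, which couples the receptor to its G protein, and the kainate subunit Grik5 have representative probes that hold AATAAA, the core poly(A) signal, in capitals below. They are shown as 2 of the 4 representative probes that hold the motif. The Gabbr2 probe lies at chr5:63241412-63241471 and that of Grik5 at chr1:80313819-80313878, both on the minus strand.
Gabbr2, brightest probe: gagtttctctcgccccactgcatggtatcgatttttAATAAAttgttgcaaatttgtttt
Gabbr2, second probe: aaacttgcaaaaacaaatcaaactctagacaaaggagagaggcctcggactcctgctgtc
Grik5, only probe: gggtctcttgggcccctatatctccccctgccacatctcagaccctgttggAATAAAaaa
The motif AATAAA, searched on the printed strand, was found in 4 of 43 representative probes (9.30%; Gabbr2, Grik5, Grm4 and Grm7) and in 9.04% of all probes. Where a subunit had several probes placed on 1 strand, the brightest was the most downstream in 15 of 24 cases (62.5%), against 64.9% of 6728 genes of the array. Both shares lay near those of the whole array. The second Gabbr2 probe was 7.14 log2 units dimmer than the first.

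Over the 26 subunits with several probes, the 32 other probes lay 0.22 to 9.12 log2 units below the representative one, with a median of 3.53, and 22 of them lay more than 3 units below. The widest span was that of the AMPA subunit Gria3, whose 4 probes had mean levels of 1.48, -1.60, -4.03 and -7.65. The closest pairs were those of Grin2a, at -1.91 and -2.13, and of Gabre, at -7.83 and -8.05, which was detected on no array. The order of subunits below is therefore an order of probe signals and not of transcript amounts.

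**Figure D1:**
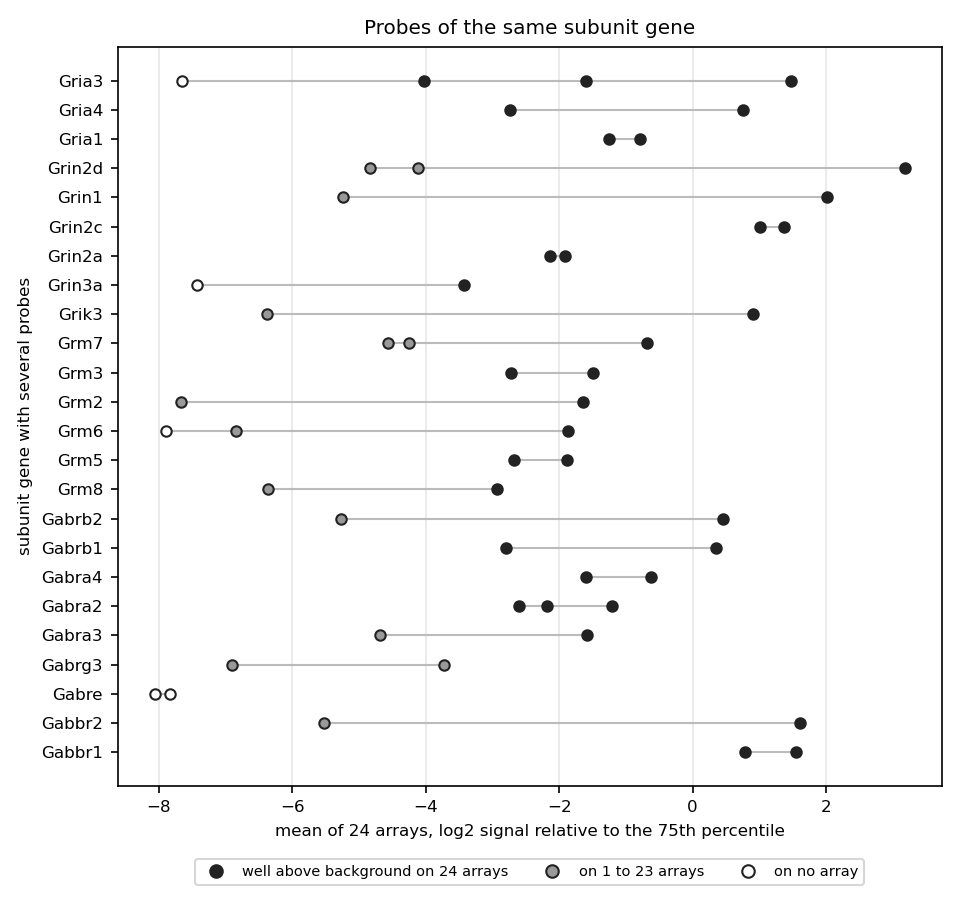
Mean log2 signal relative to the array's 75th percentile (x axis, 24 arrays) of every probe of 24 subunits with more than 1 probe (y axis, 1 row a gene). Filled points were well above background on all 24 arrays, grey ones on 1 to 23 and open ones on none; the span is widest for Gria3, from -7.65 to 1.48.

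Most of the receptor subunits gave a signal above background. Of the 43 subunits, 32 were well above background on all 24 arrays, 6 on some and 5 on none. Over the whole array, 14163 genes were well above background on all arrays, of 36174 genes before the filter on dim probes. The 5 that were never detected were GABA-A subunits: Gabre, the rho subunits Gabrr1, Gabrr2 and Gabrr3, which are known from the retina, and Gabra6, known from cerebellar granule cells. All 8 metabotropic glutamate receptors and both GABA-B subunits were detected on all arrays, as were 3 of 4 AMPA, 6 of 7 NMDA, 3 of 5 kainate and 10 of 17 GABA-A subunits. These counts are of representative probes. For Grm6 that was the repeat probe shown above, and the other Grm6 probes were well above background on 7 and 0 arrays. Grin3b, a glycine-binding NMDA subunit, was well above background on 2 saline, 3 acute and 0 chronic arrays. It did not enter the tests. Gria2, Gabra5, Gabrg3, Grik4 and Grik1 were above background on 22, 22, 23, 23 and 21 arrays and were tested. The 37 tested subunits passed a filter that needs a share of 0.5 of the arrays of at least 1 group.

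**Figure D2:**
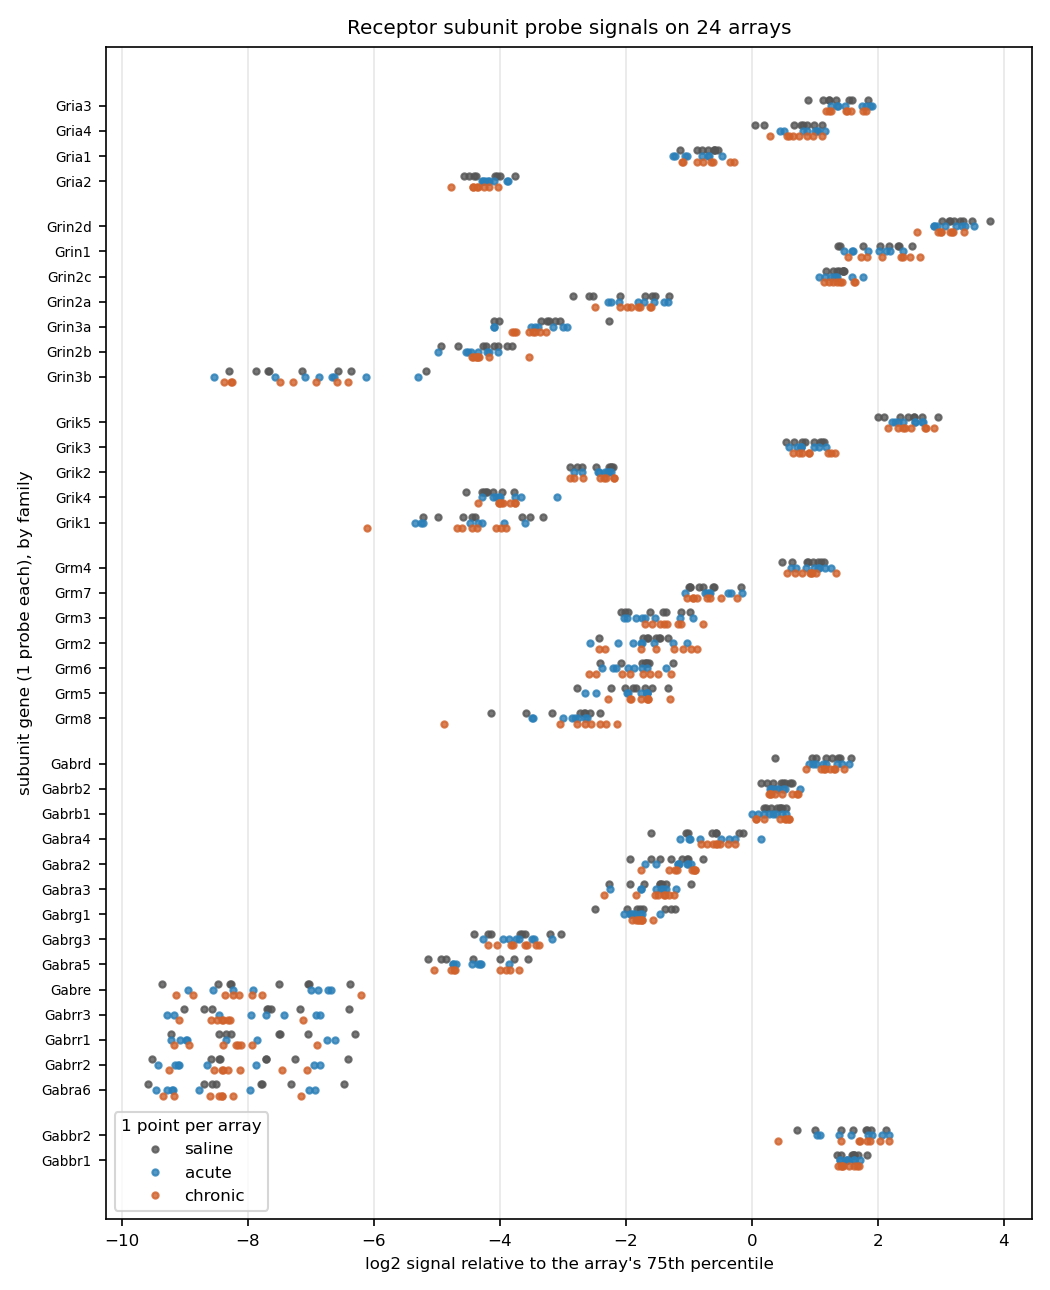
Log2 signal relative to the array's 75th percentile (x axis) of the representative probe of 39 subunits (y axis), 1 point per array, with saline, acute and chronic arrays on neighbouring lines. The 5 GABA-A subunits detected on no array lie between -9.58 and -6.21, and the groups overlap for every subunit shown.

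Within families, the order of signals was stable for some subunits and not for others, and 11 of 43 kept 1 rank on all arrays measured. The 4 AMPA subunits had the same order on 24 of 24 arrays, with mean levels of 1.48 for Gria3, 0.76 for Gria4, -0.78 for Gria1 and -4.23 for Gria2. In the NMDA family Grin2d (3.18 ± 0.25, SD, n = 24) was the brightest on all arrays and Grin3b (-7.13 ± 0.92) the dimmest. In the kainate family Grik5 (2.49 ± 0.25) ranked the first on all arrays, and the dimmest pair, Grik4 and Grik1, changed places on 7 arrays. Among metabotropic receptors Grm4 (0.92) kept its rank, whereas Grm3, which stood the fourth, ranged from rank 3 to rank 7. Of the detected GABA-A subunits Gabra5 was the dimmest (-4.38). Gabbr2 and Gabbr1 had means of 1.61 and 1.55 and stood in that order on 14 arrays, so they could not be ranked.

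No receptor subunit changed with MDPV at an adjusted p under 0.05 in limma's test, in which p-values were adjusted by Benjamini-Hochberg over 20902 genes. None of the 37 passed in acute against saline, chronic against saline, chronic against acute or the F test over the 3 groups, and the share of all genes called was 0% in each. At an unadjusted p under 0.05 the counts were 0, 1 and 0 of 37 in those comparisons, against 1.59%, 2.87% and 2.48% of all genes tested (333, 599 and 519). The smallest adjusted p of a subunit was 1.00, 0.999 and 0.960 in the 3 comparisons. Where 3 differences are given in a row below, they are acute minus saline, chronic minus saline and chronic minus acute, in that order, and comparisons with a shared group are not independent.

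The subunits as a list did not lie far from all genes. In acute minus saline 17 subunits were higher and 20 lower, with a median log2 difference of -0.04, against -0.00 over all genes, of which 49.1% were higher. In chronic minus saline 24 were higher and 13 lower with a median of 0.05, against 0.02 over all genes and 56.5% higher. In chronic minus acute 21 were higher and 16 lower with a median of 0.01, against 0.02 over all genes. The median standard error of a subunit's difference was 0.16. The 95% interval lay within a 1.5-fold change either way for 31, 32 and 32 of the 37 subunits, so larger changes of those were outside their intervals. Without saline replicate 4, the difference from saline changed sign for 6 subunits in the acute group and for 11 in the chronic group, and moved by over 1.5 times for another 20 and 17. The median subunit difference was above 0 in acute minus saline without saline replicate 3, saline replicate 6 or acute replicate 3. It was below 0 in chronic minus acute without chronic replicate 3, chronic replicate 4 or the averaged chronic replicates 2 and 5.

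**Figure D3:**
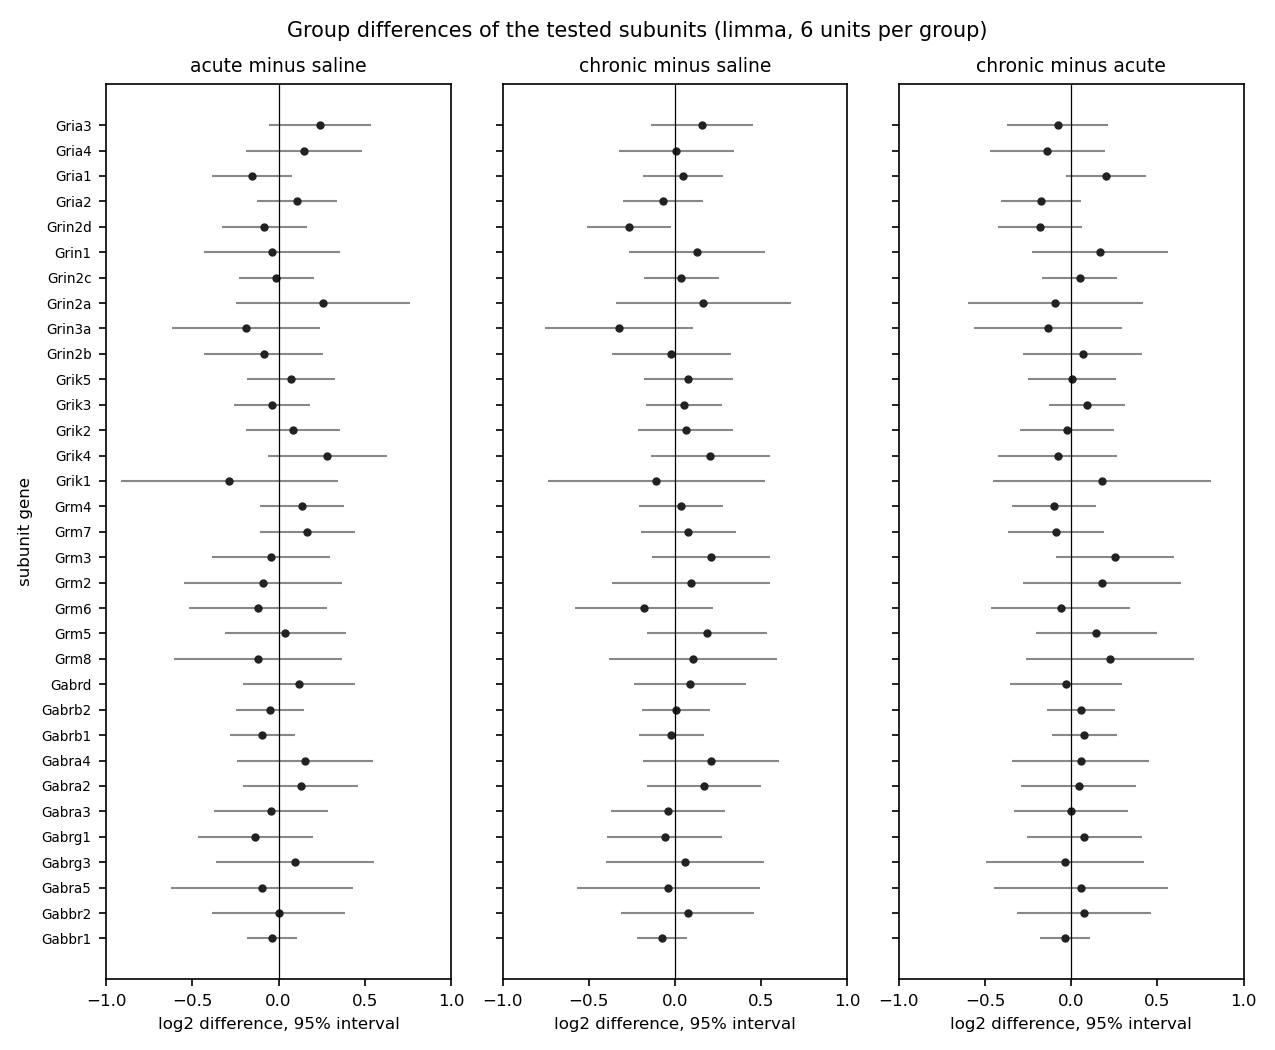
Log2 difference between groups (x axis) of 33 of the 37 tested subunits (y axis), with limma's 95% interval, for acute minus saline, chronic minus saline and chronic minus acute, 6 units per group. The differences range from -0.32 to 0.28, and the interval of Grin2d in chronic minus saline is the only one that leaves out 0.

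AMPA receptors carry most fast excitatory transmission. Gria1, a subunit added to synapses during plasticity, ranged over the arrays from -1.14 to -0.54 in saline (median -0.65), from -1.26 to -0.48 in acute (median -0.92) and from -1.11 to -0.28 in chronic (median -0.71). The ranges overlapped, and the highest values were those of 2 chronic arrays. Its difference was -0.15 in acute minus saline (SE 0.11), 0.05 in chronic minus saline and 0.20 in chronic minus acute (SE 0.11, adjusted p = 0.960, limma). On slides 1, 2 and 3 alone, the last value was 0.32, -0.12 and 0.11. The second Gria1 probe gave 0.16 in the same comparison.

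Gria2, whose RNA-edited form keeps the channel closed to calcium, ranged from -4.56 to -3.76 in saline (median -4.23), -4.29 to -3.87 in acute (median -4.18) and -4.78 to -4.03 in chronic (median -4.36). The acute arrays lay inside the saline range and the chronic ones reached lowest. It had differences of 0.11, -0.07 and -0.18 in the 3 comparisons, with standard errors of 0.11. The probe was not well above background on 1 saline and 1 chronic array.

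Gria3 ranged from 0.89 to 1.85 in saline (median 1.28), 1.25 to 1.90 in acute (median 1.62) and 1.17 to 1.81 in chronic (median 1.51). Saline replicate 4 was the lowest of the 24 arrays, and the ranges overlapped. The differences were 0.24 in acute minus saline (SE 0.14) and 0.16 in chronic minus saline, and they were 0.15 and 0.07 without saline replicate 4. The first was -0.25, 0.40 and 0.50 on slides 1 to 3, and the 2 other tested probes of the gene gave -0.00 and 0.04. Gria4 had differences of 0.15, 0.01 and -0.14.

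NMDA receptors need Grin1, which binds glycine, and Grin2 subunits, which bind glutamate. Grin1 ranged from 1.36 to 2.54 in saline (median 2.10), 1.46 to 2.40 in acute (median 1.93) and 1.53 to 2.67 in chronic (median 2.22), with each range covering most of the others. Its differences were -0.04, 0.13 and 0.17, with standard errors of 0.19, and those from saline were -0.16 and 0.01 without saline replicate 4. Grin2a, common in the adult forebrain, ranged from -2.84 to -1.31 in saline (median -1.90), -2.28 to -1.33 in acute (median -1.76) and -2.48 to -1.60 in chronic (median -1.87). The saline arrays spread widest and held the lowest values. Grin2a had differences of 0.26, 0.17 and -0.09, and the second probe of the gene gave 0.18, 0.14 and -0.04. The differences of Grin2a from saline were 0.15 and 0.06 without saline replicate 4.

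Grin2b, typical of striatal NMDA receptors, ranged from -4.93 to -3.81 in saline (median -4.15), -4.98 to -4.02 in acute (median -4.40) and -4.44 to -3.54 in chronic (median -4.35). The groups overlapped, and the differences were -0.09, -0.02 and 0.07. Grin2c had 1 of the smallest spreads (SD 0.17) and had differences of -0.01, 0.04 and 0.05.

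Grin2d was the only subunit below an unadjusted p of 0.05. Its signal ranged from 3.02 to 3.78 in saline (median 3.26), 2.89 to 3.53 in acute (median 3.16) and 2.62 to 3.36 in chronic (median 3.07). Chronic replicate 1 was the lowest and saline replicate 2 the highest array, and most values of the groups overlapped. Chronic minus saline was -0.26 (SE 0.12, adjusted p = 0.999, limma), a 1.20-fold lower signal, and chronic minus acute was -0.18. On slides 1, 2 and 3 alone, chronic minus saline was -0.55, -0.05 and -0.11. The other probes of Grin2d, shown above, gave -0.07 and -0.12. No subunit was below 0.05 in this comparison without chronic replicate 1, chronic replicate 3, saline replicate 3, saline replicate 6 or the averaged saline replicates 2 and 5. Grin3a, which lowers the calcium flow of NMDA channels, had a difference of -0.32 in chronic minus saline (SE 0.20), and saline replicate 4 was its highest array at -2.27. Without that array the difference was -0.13.

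Kainate receptors modulate release and excitability. Grik5, a high-affinity subunit that joins others to form channels, ranged from 2.01 to 2.95 in saline (median 2.53), 2.22 to 2.72 in acute (median 2.50) and 2.16 to 2.89 in chronic (median 2.48). The acute arrays lay inside the saline range, and the differences were 0.07, 0.08 and 0.01, of which the first pair was -0.02 and -0.01 without saline replicate 4. Grik4, the other high-affinity subunit, ranged from -4.54 to -3.77 in saline (median -4.22), -4.28 to -3.10 in acute (median -4.00) and -4.35 to -3.75 in chronic (median -3.97). Acute replicate 7 was higher than all other arrays. Grik4 had a difference of 0.28 in acute minus saline (SE 0.16) and 0.21 in chronic minus saline, and the first was 0.15 after normexp background correction and -0.04 on slide 2. Grik1 had differences of -0.29, -0.11 and 0.18 with a standard error of 0.30, the largest of the subunits, and the first pair was -0.12 and 0.05 without saline replicate 4. Grik2 and Grik3, which can form channels of their own, had differences of 0.09, 0.06 and -0.02 and of -0.04, 0.05 and 0.09.

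Metabotropic glutamate receptors act through phospholipase C or by lowering cyclic AMP, and Grm5 belongs to the former. Grm5, abundant in striatal projection neurons, ranged from -2.78 to -1.34 in saline (median -1.86), -2.66 to -1.66 in acute (median -1.86) and -2.28 to -1.30 in chronic (median -1.71). Saline replicate 4 was the lowest array and chronic replicate 2 the highest. Its differences were 0.04, 0.19 and 0.15, and the second probe of the gene gave 0.43, 0.48 and 0.05. Grm5 itself had a difference of -0.12 in acute minus saline and 0.02 in chronic minus saline without saline replicate 4.

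Grm3, a receptor of glia and nerve endings, ranged from -2.08 to -0.99 in saline (median -1.51), -2.03 to -0.94 in acute (median -1.72) and -1.69 to -0.78 in chronic (median -1.37). The chronic arrays reached less low than the others, with overlap. Grm3 had differences of -0.04, 0.21 and 0.25 (SE 0.16), and the last was 0.18, 0.29 and 0.38 on slides 1 to 3. The second Grm3 probe gave 0.01 in chronic minus acute. It was placed at chr4:22120079-22120138, far from the first at chr4:20961707-20961766, and its accession was not in RefSeq. The 2 probes had a correlation of 0.34 over the arrays, so whether they measure the same transcript is uncertain. Grm4, a presynaptic receptor, ranged from 0.47 to 1.15 in saline (median 0.93), 0.63 to 1.25 in acute (median 1.02) and 0.56 to 1.34 in chronic (median 0.94). Saline replicate 4 was the lowest array, and Grm4 had differences of 0.14, 0.04 and -0.10, of which the first pair was 0.06 and -0.04 without that array. Grm7, another presynaptic receptor, had a difference of 0.17 in acute minus saline, where its other probes gave -0.05 and 0.26. Grm8 had a difference of 0.22 in chronic minus acute with a standard error of 0.23, and Grm6, whose repeat probe is shown above, had 1 of -0.18 in chronic minus saline. Grm2, a presynaptic receptor of cortical inputs, had differences of -0.09, 0.09 and 0.18.

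Many GABA-A receptors with a gamma subunit sit at synapses and those with the delta subunit outside them. Gabra2, a synaptic alpha subunit, ranged from -1.93 to -0.77 in saline (median -1.20), -1.70 to -0.96 in acute (median -1.16) and -1.76 to -0.90 in chronic (median -1.07). The saline range held all other arrays, and Gabra2 had differences of 0.13, 0.17 and 0.04. Without saline replicate 4, its lowest array, those from saline were 0.0032 and 0.05.

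Gabra4 and Gabrd form extrasynaptic receptors that give a steady inhibitory current. Gabra4 ranged from -1.60 to -0.14 in saline (median -0.61), -1.14 to 0.14 in acute (median -0.65) and -0.80 to -0.26 in chronic (median -0.56). The chronic arrays spread least, and saline replicate 4 was the lowest. Gabra4 had differences of 0.15, 0.21 and 0.05, and those from saline were -0.01 and 0.04 without saline replicate 4. Gabrd ranged from 0.37 to 1.58 in saline (median 1.23), 0.91 to 1.54 in acute (median 1.16) and 0.87 to 1.47 in chronic (median 1.20). All acute arrays and all chronic arrays lay inside the saline range, and Gabrd had differences of 0.12, 0.09 and -0.03. Without saline replicate 4, which held its lowest value, those from saline were -0.03 and -0.06.

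Gabra5, another alpha subunit found outside synapses, ranged from -5.15 to -3.55 in saline (median -4.43), -4.75 to -3.86 in acute (median -4.39) and -5.05 to -3.70 in chronic (median -4.35). The saline range held all other arrays. Gabra5 had differences of -0.10, -0.04 and 0.06, and the fit dropped saline replicate 3, whose spot was marked as an outlier. Without saline replicate 4 the differences from saline were -0.26 and -0.20. Gabrb1 and Gabrb2, beta subunits of the channel, had differences of at most 0.09 in size, as Gabrb1 had in acute minus saline (-0.09, SE 0.09).

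Gabrg1, a gamma subunit, ranged from -2.50 to -1.21 in saline (median -1.75), -2.03 to -1.46 in acute (median -1.86) and -1.90 to -1.57 in chronic (median -1.78). The saline range held all other arrays, and Gabrg1 had differences of -0.13, -0.06 and 0.08, of which the first pair was -0.05 and 0.02 without saline replicate 4. Gabra3 and Gabrg3 had differences between -0.04 and 0.10.

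Gabbr1 binds GABA and Gabbr2 signals, and a working GABA-B receptor needs both. Gabbr1 ranged from 1.35 to 1.83 in saline (median 1.61), 1.39 to 1.71 in acute (median 1.51) and 1.37 to 1.69 in chronic (median 1.49). All arrays of the drug groups lay inside the saline range, and Gabbr1 had differences of -0.04, -0.07 and -0.04 with a standard error of 0.07, the narrowest of the subunits. The second Gabbr1 probe gave -0.01, 0.05 and 0.06. Gabbr2 ranged from 0.72 to 2.13 in saline (median 1.71), 1.04 to 2.17 in acute (median 1.71) and 0.41 to 2.18 in chronic (median 1.78). Chronic replicate 8 was the lowest array and chronic replicate 6, of the same title letter, the highest. Gabbr2 had differences of 0.00, 0.07 and 0.07 (SE 0.18).

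Subunits that replace each other in a receptor, or pair in it, were compared within each unit. The difference of 2 probes can be set between samples, but it is not a ratio of transcripts, and it was not tested. Gria1 minus Gria2 was 3.52 ± 0.25 log2 units in saline, 3.26 ± 0.23 in acute and 3.64 ± 0.23 in chronic (SD, n = 6 units each). Grin2a minus Grin2b, a pair whose balance shifts during development, was 2.21 ± 0.48, 2.55 ± 0.36 and 2.40 ± 0.27. For the GABA-B pair, Gabbr1 minus Gabbr2 was -0.03 ± 0.42, -0.07 ± 0.32 and -0.18 ± 0.20. Values of the groups overlapped for these 3 pairs.

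The median spread between arrays was larger for the subunits than for all genes, a description with no test. Among those detected on all arrays the median SD over 24 arrays was 0.30 for 32 subunits and 0.22 for 14163 genes. Among the steadiest were Gabbr1 (SD 0.13), Gabrb2 (0.17), Grin2c (0.17) and Gabrb1 (0.18). The second probes of these genes had SDs of 0.27, 0.22, 0.21 and 0.30 in that order, so the steadiness is that of the representative probe. The most variable were Grm8 (0.62), Grm2 (0.47), Gabbr2 (0.47), Grin3a (0.43) and Grin2a (0.42). For Grm8 the lowest and the highest array differed 6.71-fold, and for Gabbr1 1.40-fold. Saline replicate 4 was the lowest array for 8 of the 37 tested subunits and the highest for 3. Among those lowest there were Gria3, Gabrd, Gabra4, Gabra2, Grik5, Grm4 and Grm5, and among those highest Grin3a and Grm6.

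Part of this variation ran with the level of striatal projection neuron genes. With group in the model, 6 of 37 subunits (16.2%) followed that level at an adjusted p under 0.05 in limma, against 5.38% of all genes. Grm5 had a slope of 0.71 log2 units per log2 unit of list level (SE 0.11, adjusted p = 0.000811), Gabra4 of 0.74, Gabrd of 0.59 and Grm4 of 0.46, whereas Grin3a (-0.68) ran the other way. All 6 slopes had the same sign on each of the 3 slides, but 0 subunits were called on any slide alone. The 6 were picked on these same arrays, saline replicate 4 among them, so the shared sign is not a separate test. The calls rested on saline replicate 4: without it 1 subunit (2.70%) was called, against 1.09% of all genes, 0 of the 6 kept the call, and the slopes were 0.57 for Grm5 (adjusted p = 0.116), 0.60 for Gabra4, 0.39 for Gabrd, 0.56 for Grm4 and -0.28 for Grin3a. Whether tissue content sets these levels was not tested.

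The probes of the subunits that rose most steeply (Gabra4) and had the smallest p (Grm5) in that fit are shown, Gabra4 at chr14:39123527-39123586 and Grm5 at chr1:144477224-144477283, both on the plus strand.
Gabra4: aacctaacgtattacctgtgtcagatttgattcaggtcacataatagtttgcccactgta
Grm5: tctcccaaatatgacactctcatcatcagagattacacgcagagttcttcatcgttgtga

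Another set of subunits followed the cortical neuron level. These were 3 of 37 (8.11%, against 2.59% of all genes): Gabbr2 with a slope of 0.33 (SE 0.08), Gabra5 with 0.46 and Grm8 with 0.42. The Gabra5 fit lacked saline replicate 3, the unit with the highest cortical level (-1.57). The only Gabra5 probe was dim (mean -4.38) and well above background on 22 arrays. Among the 18 units of these fits, saline replicate 4 had the lowest cortical level (-4.08). Without saline replicate 4 the slopes were 0.47 for Gabbr2 (adjusted p = 0.00162), 0.43 for Gabra5 and 0.63 for Grm8 (adjusted p = 0.000154). In that fit 4 subunits (10.8%) were called, against 1.88% of all genes, 2 of the 3 among them. Leaving out any of 13 other units brought the count to 0 or 1. The exceptions, where it stayed within 1.5 times, were the averaged saline replicates 1 and 8, the averaged acute replicates 1 and 8, acute replicate 7 and chronic replicate 7. The 3 arrays with the lowest Grm8 signal, chronic replicate 8 and saline replicates 2 and 5, were among the 4 with the lowest cortical level. Thalamus, septum and pallidum genes were followed by 4 of 37 subunits (10.8%, against 6.01% of all genes), and by 0 without saline replicate 4, against 0.0574% of all genes. The count was 2 without chronic replicate 3, acute replicate 5, or the averaged replicates 1 and 8 of acute, 1 and 8 of saline or 6 and 8 of chronic. The 4 were Gabrd (-0.47), Grm5 (-0.47), Grin2b (-0.44) and Grin3a (0.55). No subunit followed the choroid plexus level, against 0.0431% of all genes. The part of other tissue in these levels was not tested.

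**Figure D4:**
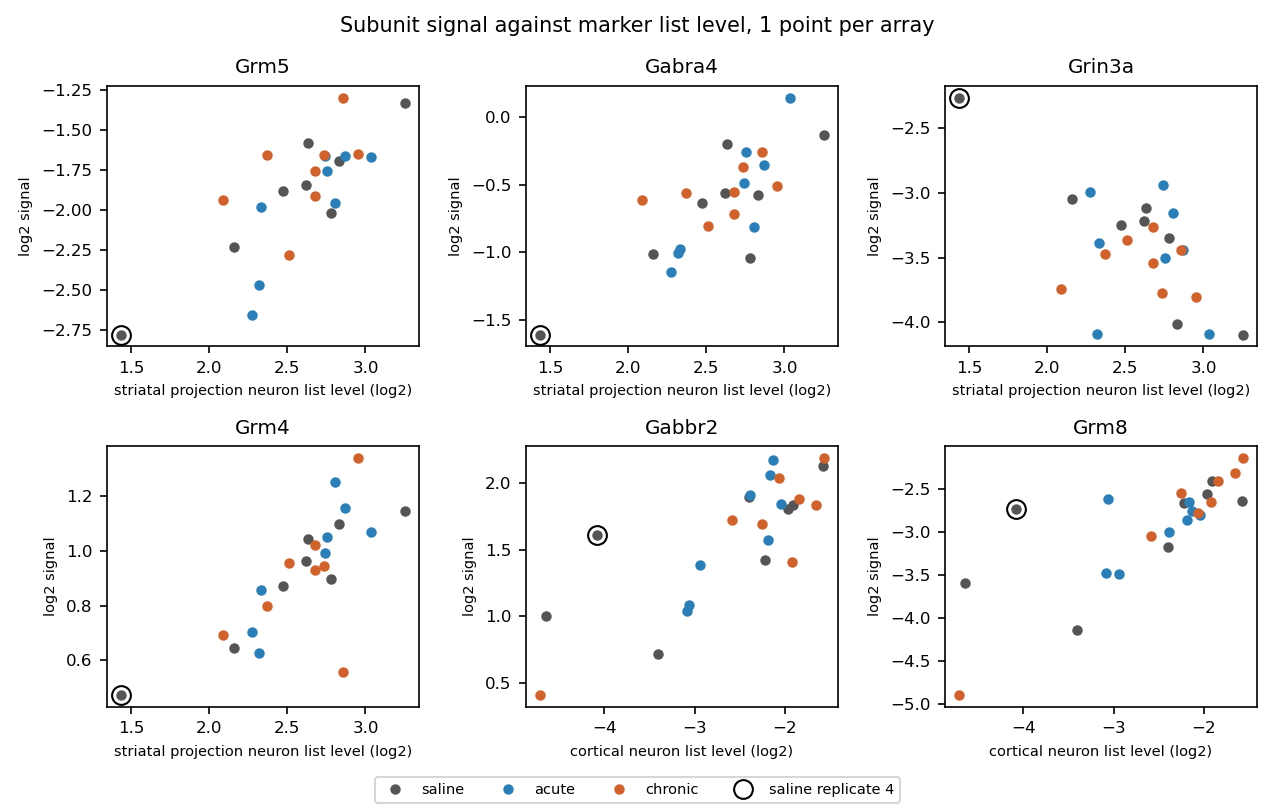
Log2 signal of 6 subunits (y axes) against the mean level of the striatal or cortical marker list (x axes, log2), 1 point per array. Grm5, Gabra4 and Grm4 rise and Grin3a falls with the striatal level, where saline replicate 4 (circled in all plots) lies at the low end. Gabbr2 and Grm8 rise with the cortical level, where saline replicate 4 is at -4.08 and not at the end.

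The proteins that traffic, anchor or signal for these receptors were read from lists of partner genes. None of them passed the test in any comparison. AMPA partners were 14 measured of 17: 6 were higher and 8 lower in acute minus saline, 12 and 2 in chronic minus saline (median 0.13), and 14 and 0 in chronic minus acute (median 0.16). Of all genes, 56.5% were higher in each of the latter comparisons, with a median of 0.02. Of these, Cacng4, an auxiliary subunit, had a difference of -0.48 in acute minus saline (SE 0.22) and Nsf, a recycling ATPase, had 1 of 0.24 in chronic minus acute. At an unadjusted p under 0.05 the list held 1 gene of 14, Cacng4, in acute minus saline, against 1.59% of all genes. It held 0 in chronic minus saline and chronic minus acute, against 2.87% and 2.48%.

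Of 12 measured NMDA, kainate and delta receptor partners, 10 were higher and 2 lower in chronic minus saline, with a median of 0.13. For this list and those that follow, 56.5% of all genes were higher in chronic minus saline, with a median of 0.02. Dlg3, a scaffold of NMDA receptors, had a difference of 0.22 in that comparison (SE 0.09). It was the only gene of the 12 at an unadjusted p under 0.05, against 2.87% of all genes. Cbln1, a ligand of delta receptors, had a difference of -0.91 in the same comparison (SE 0.55). Of 11 metabotropic receptor partners 8 were higher and 3 lower in chronic minus saline, where the scaffolds Grasp and Shank1 had differences of 0.32 and 0.24. Of 11 measured of 12 GABA-A partners 5 were higher and 6 lower in that comparison, and Gphn, the gephyrin scaffold, had a difference of 0.23 and Lhfpl4, a receptor-anchoring protein, had 1 of -0.35. Of 8 measured of 9 GABA-B partners 5 were higher and 3 lower in chronic minus saline. Kcnj9, a potassium channel opened by GABA-B receptors, had a difference of 0.33 in chronic minus acute and Rgs7, a G protein regulator, had 1 of 0.19 in chronic minus saline.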

How the data were processed

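Cy3-labelled total RNA was hybridised to 1-colour Agilent arrays. Per the file headers, the processed signal is an intensity from which Agilent Feature Extraction (10.7 in the submitters' processing notes) had subtracted background, with no scaling between arrays, and the deposited flags of 0 or 1 mark spots well above background, saturated or outlying. The values deposited by the authors are on a log2 scale and had a Spearman correlation of 1 with these signals on each array, and the method behind it is not given in the sources used here. Positions of probes come from the deposited files, whose headers name rn4; strand was read from the order of start and end, and no rn4 annotation was used, so exon or UTR is not stated. Of the probes' accessions, 61 of 75 were in RefSeq, with the same symbol.

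Each processed signal was put on a log2 scale and set against its array's 75th percentile, without control and outlier spots (312 missing values). The filter left 26259 of 45598 probes, asking for a 0.5 share of arrays well above background in 1 group or more, and the probe of highest mean stood for its gene. The test was limma 3.58.1 (lmFit, contrasts.fit, eBayes and its F test) on 18 units with 1 shared spread and a threshold of 0.05 after Benjamini-Hochberg adjustment over 20902 genes. Slopes on marker levels had group as a covariate and left out the list's own genes. The fit was tested on simulated data. Saline, acute and chronic had 3, 2 and 3 arrays on slide 1, the same on slide 2, and 2, 4 and 2 on slide 3. Alternatives were quantile and normexp (offset 50) processing, the authors' values, other filters and detection flags, other probes, 24 arrays, 1 array per letter, the letter or slide as a block, each slide alone, robust moderation, only the compared groups, units left out, and marker levels without the 2 farthest units. The number of arrays limits precision. Software was Python 3.11.15 (pandas 2.3.3, numpy 2.4.6, matplotlib 3.10.9) and R 4.3.3 (statmod 1.5.0).

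Some subunits are counted among the 43 but not reported here. The members and lists were chosen with earlier results of these data known. Genes named follow a rule: a fixed set of subunits whatever their values, 4 per direction of a comparison, taken by smallest p, the brightest and dimmest of each family, the 5 largest and smallest SDs, subunits past a threshold and 2 genes per partner list. The sequences shown, the differences of Grik2, Grik3, Gabra3 and Gabrg3 and the examples of probes of 1 gene were chosen after their values were seen.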

Additional observations from a re-analysis of the deposited data

Results flagged for a closer look

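In 9 of 111 subunit and group combinations, 1 unit stood apart from the other units of its group by the gap between it and its nearest neighbour. Chance alone gives about 1 in 20 such gaps. Saline replicate 4 was the one in 3 of them, all low: Gabrd at 0.37, Gria1 at -1.14 and Grik5 at 2.01. In the same group Gabbr1 was low in replicate 7 at 1.42, and Grm8 was low in the averaged replicates 2 and 5 at -3.86. In the acute group replicate 7 was high for Grik4 at -3.10 and for Grin2c at 1.76. In the chronic group Gabbr2 was low in the averaged replicates 6 and 8 at 1.30, whose 2 arrays were the highest and the lowest of all 24, and Gabra2 was low in replicate 7 at -1.76.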

How the results depend on the processing

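No paired analysis was possible because replicate numbers follow accession order and pair no samples between groups. Of 488 alternatives of the main results, 423 kept the value within its spread, or within 1.5 times for a count, and 65 did not. The median subunit difference, small in each comparison, changed sign in 8, 1 and 6 of 32 alternatives of acute minus saline, chronic minus saline and chronic minus acute. With a unit left out it ranged from -0.037 to 0.044, from 0.022 to 0.078 and from -0.015 to 0.049. No subunit and no gene was called under any alternative of the group comparisons, and 37 subunits in place of 32 were detected on all arrays by the positive and significant flag. Shares in brackets are those of all genes in the same fit. To set beside them, counts of 1, 2, 3, 4 and 6 of 37 subunits are 2.70%, 5.41%, 8.11%, 10.8% and 16.2%. At an unadjusted p under 0.05, acute minus saline gave 1 of 37 subunits with 24 arrays (1.43%), 3 with the letter as a random block (3.30%), 2 on slide 2 (4.02%) and 4, or 10.8%, on slide 3 (10.9%), and 0 to 2 with a unit left out (2 without saline replicate 4, 1 without acute replicate 3 or saline replicate 7; 1.27% to 2.88%). Chronic minus saline gave 2, or 5.41%, after normexp (8.24%), 0, 2 and 4 on slides 1 to 3 (4.63%, 9.32% and 5.00%), and 0 to 2 with a unit left out (2 without saline replicate 7, 8.97%). Chronic minus acute gave 2 with the letter block (10.1%), 1 with slide as a block (2.92%), 1, 6 and 2 on slides 1 to 3 (1.80%, 7.62% and 5.11%), and 0 to 2 with a unit left out (2 without acute replicate 5, 4.37%, and 1 without saline replicate 4, 3.08%). On slide 3 alone the median difference was -0.085 in chronic minus saline and -0.16 in chronic minus acute. The 6 subunits that followed the striatal level became 10 with 24 arrays (8.40%), 0 on each slide alone (at most 0.00479%), 0 without the 2 farthest units (1.09%), and 1 to 8 with a unit left out (1.09% to 5.88%). The 3 of the cortical level became 1 after normexp (2.04%), 7 with 24 arrays (9.55%), 6 with slide as a block (7.64%), 0, 0 and 1 on slides 1 to 3 (at most 0.302%), 1 without the 2 farthest units (0.455%), and 0 to 4 with a unit left out (1.79% to 2.77%). The 4 of the thalamus, septum and pallidum level became 12 with 24 arrays (11.7%), 7 with slide as a block (7.20%), 0 on each slide alone and without the 2 farthest units (at most 0.00479%), and 0 to 6 with a unit left out (0.0574% to 6.95%). For choroid plexus, 24 arrays gave 1 (0.952%). Fewer arrays enter each slide alone; the cause of the other moves was not tested. Values of single subunits kept within their spread in 3505 of 3624 alternatives. For the subunits not well above background, signal limits what can be said of their level.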
